A study of Mus musculus with 11 samples.

Results

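The 9 genes described here encode urea cycle enzymes of the liver, the mitochondrial carriers that serve the cycle and the enzymes that deliver ammonia to it. They were chosen by name (Nags, Cps1, Otc, Ass1, Asl, Slc25a13, Slc25a15, Gls2 and Glud1), and all 9 were found among the 36788 Ensembl gene identifiers of the expression table. Liver RNA was sequenced from 5 mice treated with follicle-stimulating hormone (FSH) and 6 mice treated with saline. Per the labels all 11 were ovariectomized (OVX) female wild-type C57BL/6 mice older than 12 weeks on a high-fat diet, whereas the study's methods give its mice a mixed 129 × C57BL/6J background. Ovariectomy and diet were shared by both groups, and no intact or chow-fed mice entered the comparison. Whole livers were treated with the protease papain before RNA was extracted, and each library is therefore a bulk measure of the organ, in which fewer cells of a type and less RNA per cell cannot be told apart.

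Ammonia set free from amino acids in the liver enters the cycle inside mitochondria, where carbamoyl phosphate synthetase (Cps1), switched on by the product of Nags, joins it to bicarbonate. Otc then forms citrulline, which leaves the mitochondrion in exchange for ornithine through the carrier Slc25a15. In the cytosol, Ass1 and Asl add the second nitrogen from aspartate, which the carrier Slc25a13 supplies, before urea is released and ornithine returns to the mitochondrion. Liver glutaminase (Gls2) and glutamate dehydrogenase (Glud1) free ammonia from glutamine and glutamate. The urea cycle enzyme genes are expressed mainly by periportal hepatocytes, whereas the pericentral cells take up remaining ammonia as glutamine through Glul.

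The values are CPM, the reads counted on a gene scaled to a library total of 1000000, with 11410596 to 19909327 reads per library in the FSH group and 10801891 to 16077442 in the saline group. At these depths a gene with no read could still have had up to 0.151 to 0.278 CPM, counting error only, and all 9 genes lay far above this limit. Hepatocyte markers summed to between 96581 and 116720 CPM in FSH livers and between 90493 and 120830 CPM in saline livers, and Alb, which encodes albumin, did not differ beyond the spread between mice (log2 fold change 0.05, limma adjusted p = 0.894). Alb made up most of these sums. Of the 7 hepatocyte markers measured, 2 were higher and 5 lower with FSH (median log2 fold change -0.17), and Fgb and Hnf4a passed the test as lower, a call lost for Hnf4a in 9 of 25 alternatives. Over all tested genes 4.41% passed as lower.

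FSH and saline livers were compared on log2(CPM + 0.5) with limma over 12733 genes, with p-values adjusted over all of them (Benjamini-Hochberg). Of the 9 genes, Gls2 and Ass1 were significantly higher with FSH, Glud1 was significantly lower, and the other 6 did not pass an adjusted p of 0.05. Over all tested genes the same rule called 10.6% in either direction, 6.19% higher and 4.41% lower. None of the 9 (0 genes) also passed an absolute log2 fold change of 1, the second threshold named in the study's methods, which 1.83% of all tested genes did. The median log2 fold change was 0.11 over the 9 genes and 0.02 over all genes, with 6 genes higher and 3 lower in FSH livers. For 2 of the 9, Gls2 and Glud1, the ranges of the groups were separate, which held for 6.67% of all tested genes.

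**Figure D1:**
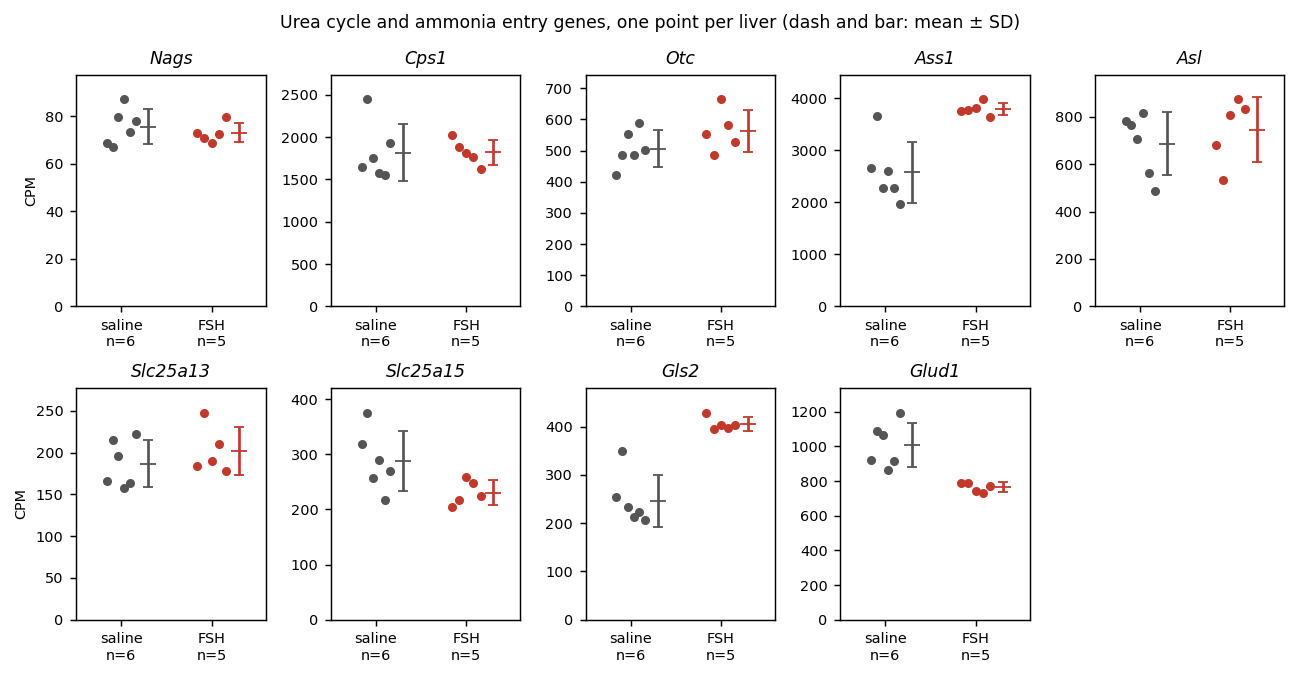
CPM of the 9 genes in each liver, on axes that start at 0, with saline livers (n = 6) in grey and FSH livers (n = 5) in red; the dash and bar give the mean ± SD. The FSH points lie above all saline points for Gls2 and below all of them for Glud1, and the saline liver near the FSH points for Ass1 is that of mouse 2.

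Gls2, the glutaminase that frees ammonia from glutamine in hepatocyte mitochondria, had the lowest adjusted p of the 9 genes. It measured 429, 395, 403, 397 and 404 CPM in FSH mice 1, 2, 3, 4 and 6, against a lowest of 207, a median of 228 and a highest of 350.5 CPM in the saline mice. All 5 FSH livers lay above all 6 saline livers, and the saline liver closest to them was that of mouse 2. The means were 405.7 ± 13.6 (SD, n = 5) and 246.7 ± 53.6 CPM (SD, n = 6), a 1.64-fold difference (log2 fold change 0.74, SE 0.12, 95% confidence interval 0.49 to 0.99, limma adjusted p = 0.00123). An exact two-sided permutation test over all splits of the livers gave p = 0.00433, the smallest it can give. Gls2 lies at chr10:128194457-128210004 on the plus strand of GRCm38, and its exons overlap those of Spryd4 on the other strand. The counting's use of strand is not given in the sources used here, so reads of the pair may be shared, and Spryd4 measured 27.5 CPM with FSH and 24.6 CPM with saline (log2 fold change 0.16, limma adjusted p = 0.321).

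Glud1, which releases ammonia from glutamate and can also run in reverse, moved in the opposite direction. Its values were 789.8, 790.1, 740.1, 731 and 774 CPM in FSH mice 1, 2, 3, 4 and 6, and 861 (lowest), 993 (median) and 1195 CPM (highest) in saline mice. All 5 FSH livers lay below all 6 saline livers. The mean fell from 1008 ± 127 (SD, n = 6) to 765 ± 28.0 CPM (SD, n = 5), 0.759 of the saline mean (log2 fold change -0.39, SE 0.09, 95% confidence interval -0.59 to -0.19, limma adjusted p = 0.0156; exact permutation p = 0.00433). Glud1 is at chr14:34310727-34345265 on the plus strand. The log2 ratio of Gls2 to Glud1 within a liver, a pair chosen after the values were seen and given with no test, lay between -0.998 and -0.88 in FSH livers and between -2.53 and -1.63 in saline livers.

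Ass1, the argininosuccinate synthetase that brings the aspartate nitrogen into the cycle, was the other gene that rose. FSH mice 1, 2, 3, 4 and 6 had 3748, 3775, 3816, 3976 and 3638 CPM, and the saline mice had a lowest of 1965, a median of 2439.5 and a highest of 3664.5 CPM. Saline mouse 2 was the highest of its group and lay above the lowest FSH liver, so that 4 of 5 FSH livers exceeded every saline liver. The means were 3790.5 ± 123 (SD, n = 5) and 2572 ± 592 CPM (SD, n = 6), a 1.47-fold difference (log2 fold change 0.59, SE 0.13, 95% confidence interval 0.30 to 0.87, limma adjusted p = 0.0112; exact permutation p = 0.00866). Without saline mouse 2 the log2 fold change was 0.70 (limma adjusted p = 0.000816), and with no filter on low values, which raised the number of tested genes to 20608, the call was lost at an adjusted p of 0.0504. Ass1 lies at chr2:31470207-31520672 on the plus strand.

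**Figure D2:**
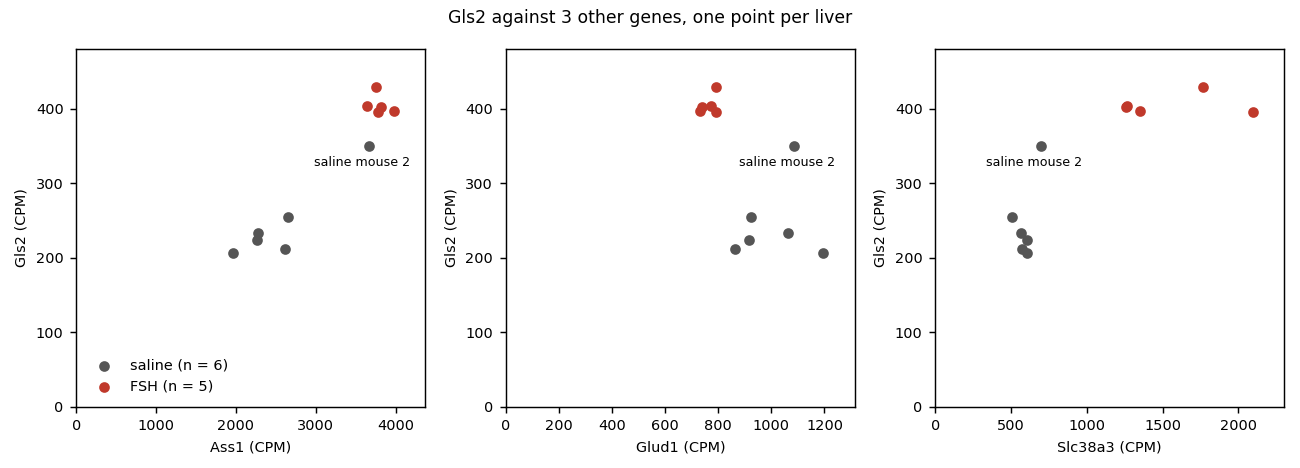
Gls2 (vertical axis, CPM) against Ass1, Glud1 and the glutamine transporter gene Slc38a3 (horizontal axes, CPM), one point per liver, with saline in grey and FSH in red. The 5 FSH livers sit at 395 to 429 CPM of Gls2 in each panel, and saline mouse 2 sits between them and the other saline livers for Gls2 but not for Glud1.

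RefSeq promoter windows for GRCm38.p6, from 250 bases before to 50 after an annotated start, were on hand for 6 of the 9 genes (Nags, Otc, Ass1, Slc25a13, Slc25a15 and Glud1). Cps1, Asl and Gls2 had no entry. The stretches of the windows before the first annotated base are shown for Ass1 and Glud1, the genes that passed the test in opposite directions and had an entry, at chr2:31470020-31470206 and chr14:34310477-34310726, both on the plus strand and written 5′ to 3′. Capitals mark the GC box GGGCGG or its reverse complement CCGCCC.
Ass1: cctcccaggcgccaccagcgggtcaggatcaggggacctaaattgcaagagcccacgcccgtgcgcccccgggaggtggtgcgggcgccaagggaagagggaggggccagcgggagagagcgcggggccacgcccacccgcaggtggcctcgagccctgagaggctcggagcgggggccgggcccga
Glud1: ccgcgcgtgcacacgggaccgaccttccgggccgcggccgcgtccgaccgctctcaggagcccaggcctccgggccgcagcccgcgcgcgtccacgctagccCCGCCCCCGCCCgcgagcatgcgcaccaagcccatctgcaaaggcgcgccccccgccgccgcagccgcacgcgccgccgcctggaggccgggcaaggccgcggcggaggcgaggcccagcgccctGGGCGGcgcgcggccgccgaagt
The whole 300-base windows were 74% G and C for Ass1 and 81% for Glud1, against a median of 52.7% over 32851 windows. The Glud1 window held 3 GC boxes, at 148, 142 and 23 bases before the start and with the first pair side by side, and the Ass1 window held 1, at 63 bases before the RefSeq start, just past the stretch shown. This motif was in 35.7% of all windows of the same length. The E-box CACGTG was found in 7.15% of all windows, and also in windows of Slc25a13 and Slc25a15, which did not pass the test. It was in the Ass1 window at 36 bases before the start and not in that of Glud1. Neither window held TATAAA (13.6% of all windows), CCAAT (37.4%), the cAMP response element TGACGTCA (1.79%) or TGACG within it (20.8%), the glucocorticoid receptor core TGTTCT (19.0%), the C/EBP core TTGCNNAA (10.8%) or CAAAGTCCA (0.475%), each of the 9 motifs being searched on both strands.

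At the mitochondrial steps, no difference was detected for the genes that start the cycle. Nags, whose product activates carbamoyl phosphate synthetase, measured 73.0, 71.1, 68.9, 72.7 and 79.7 CPM in FSH mice 1, 2, 3, 4 and 6 and 67.2 (lowest), 75.9 (median) and 87.2 CPM (highest) in saline mice (log2 fold change -0.05, 95% confidence interval -0.23 to 0.13, limma adjusted p = 0.778). Cps1, the enzyme that fixes ammonia, had 2024.5, 1888, 1813, 1762 and 1629.8 CPM with FSH and 1552, 1701 and 2447 CPM as the lowest, median and highest saline values (log2 fold change 0.02, 95% confidence interval -0.23 to 0.27, limma adjusted p = 0.944). The groups overlapped almost fully for both genes, and the interval for Cps1 does not show that its levels were equal. The sign of the Cps1 value was kept in 17 of 25 alternatives and turned in the others, among them median-of-ratios scaling, edgeR and DESeq2. Nags shares exonic positions with Gm11586, annotated on the other strand, which measured 1.16 CPM on average. Nags lies at chr11:102145513-102149477 and Cps1 at chr1:67123026-67231259, both on the plus strand of GRCm38.

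Otc, the X-linked gene of ornithine transcarbamylase, measured 552, 485, 664, 583 and 526.2 CPM in FSH mice 1, 2, 3, 4 and 6 and 422 (lowest), 494 (median) and 589.9 CPM (highest) in saline mice. Its log2 fold change of 0.15 (95% confidence interval -0.07 to 0.37, limma adjusted p = 0.400) was within the spread between mice. With single livers left out, the Otc value ranged from 0.09 (without FSH mouse 3) to 0.20 (without FSH mouse 2). Slc25a15, the ornithine and citrulline carrier, measured 205, 217, 259, 247.5 and 224 CPM with FSH and 217 (lowest), 279.8 (median) and 376 CPM (highest) with saline. Here 2 of 5 FSH livers lay below every saline liver and the others overlapped with them. The means were 230.3 ± 22.5 and 288 ± 54.8 CPM (log2 fold change -0.30, 95% confidence interval -0.57 to -0.04), and the gene did not pass over all genes (limma adjusted p = 0.131; exact permutation p = 0.0433). Without saline mouse 5, which had the lowest saline value, it did pass (log2 fold change -0.38, limma adjusted p = 0.0435). Otc is at chrX:10252305-10321024 on the plus strand and Slc25a15 at chr8:22375551-22398597 on the minus strand.

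Among the cytosolic steps, Asl and Slc25a13 did not follow Ass1 past the threshold. Asl, argininosuccinate lyase, measured 683, 534, 806, 873 and 832 CPM in FSH mice 1, 2, 3, 4 and 6, and 488 (lowest), 737 (median) and 815 CPM (highest) in saline mice (log2 fold change 0.12, 95% confidence interval -0.21 to 0.45, limma adjusted p = 0.682), and this value ranged from 0.03 (without saline mouse 6) to 0.24 (without FSH mouse 2) when single livers were left out. Slc25a13, the aspartate and glutamate carrier called citrin, measured 184, 248, 189.7, 210.4 and 178 CPM with FSH and 158, 181 and 223 CPM as the lowest, median and highest saline values (log2 fold change 0.11, 95% confidence interval -0.13 to 0.36, limma adjusted p = 0.598). With single livers left out, its log2 fold change ranged from 0.04 (without FSH mouse 2) to 0.17 (without saline mouse 6). The groups overlapped for both genes, and the intervals do not show that their levels were equal. Asl (chr5:130011258-130029247) and Slc25a13 (chr6:6041218-6217173) both lie on the minus strand.

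**Figure D3:**
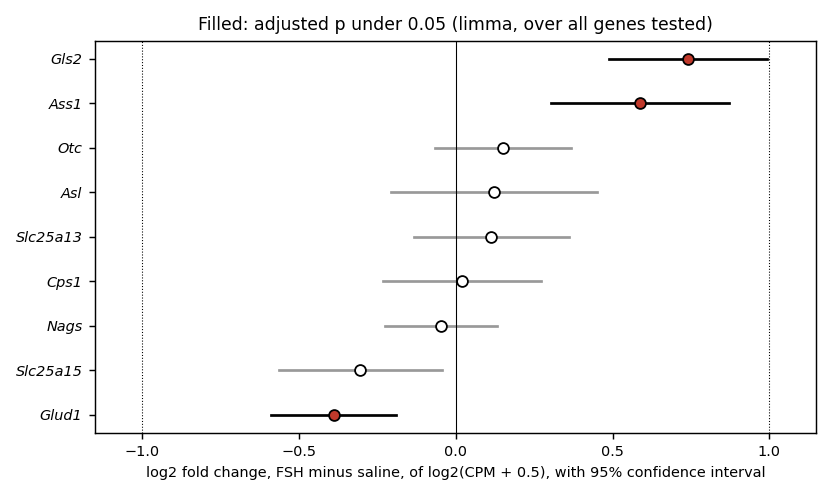
Log2 fold change of each gene, FSH minus saline on the log2(CPM + 0.5) scale, with its 95% confidence interval from limma; filled points passed an adjusted p of 0.05 over all genes tested and dotted lines mark a change of 1 in either direction. The intervals of Gls2 (0.49 to 0.99), Ass1 and Glud1 and also that of Slc25a15, which did not pass after adjustment, leave out 0.

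To compare levels between genes, CPM was divided by the summed exon length of each gene in kilobases. That length joins the exons of all annotated transcripts and can exceed that of the transcript made in liver. The order below therefore depends on the annotation. Ass1 was the highest of the 9 in all 11 livers, with 1570 ± 50.8 CPM per kb in FSH livers and 1065 ± 245 in saline livers. Cps1 (mean over the 11 livers 328 CPM per kb) came next in all 11. Glud1 (213), Asl (148), Otc (125), Gls2 (91.8), Slc25a13 (51.0), Slc25a15 (46.5) and Nags (26.3) followed. From Cps1 down to Slc25a15 the range of each gene over the livers overlapped with that of the next, and Otc lay below Asl in 8 of 11 livers and Slc25a15 below Slc25a13 in 8 of 11. Gls2 was at 117 ± 3.92 CPM per kb with FSH and 71.0 ± 15.4 with saline, while Glud1 was at 182 ± 6.64 and 239 ± 30.3. Together the 9 genes took 0.829% to 0.885% of the counted reads in FSH livers (median 0.869%) and 0.657% to 0.946% in saline livers (median 0.7104%), and the highest share was in a saline liver.

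**Figure D4:**
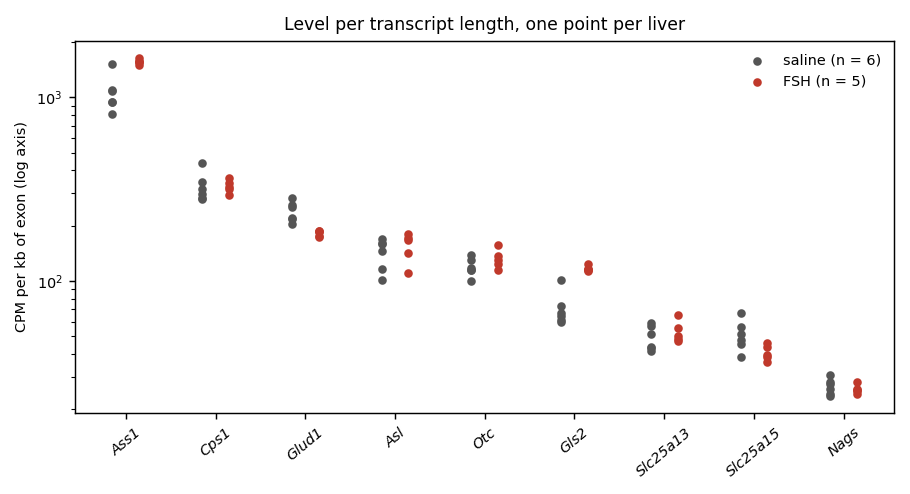
CPM per kilobase of exon on a logarithmic axis for the 9 genes, ordered by their mean over all livers, with one point per liver (saline grey, FSH red). Ass1 stands highest and Nags lowest in every liver, and Gls2 and Glud1 are the genes whose red and grey points do not overlap.

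The livers of FSH-treated mice lay closer together for most of these genes. The coefficient of variation (SD divided by the mean) was lower in the FSH group for 8 of 9 genes, with a median of 8.04% against 18.5% in the saline group. Over all tested genes it was lower in the FSH group for 58.0% of them, with medians of 14.8% and 16.3%. It was 3.36% against 21.7% for Gls2, 3.24% against 23.0% for Ass1 and 3.66% against 12.6% for Glud1. Saline mouse 2 had the highest saline value for 4 of the 9 genes (Cps1, Ass1, Slc25a15 and Gls2). Without that mouse, a choice made after seeing the data, the saline value was 8.36% for Gls2, 12.0% for Ass1 and 13.7% for Glud1, and the median over the 9 genes was 12.5%, with the FSH group lower for 9 of 9. The matching share over all tested genes without that mouse was not computed. These spreads are given as a description, with no test.

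Ratios of related genes within a liver depend little on the scaling between libraries where both genes lie far above the pseudocount of 0.5 CPM, and 3 are given, from exact two-sided permutation tests with p-values adjusted over the 5 ratios planned. The log2 ratio of Slc25a13 to Slc25a12, the aspartate and glutamate carrier of other tissues, was lower with FSH, at 3.84 ± 0.15 (SD, n = 5) against 4.13 ± 0.18 (SD, n = 6; difference -0.29, exact permutation p = 0.0173, adjusted p = 0.0433). Slc25a12 measured 13.6 ± 0.635 CPM with FSH and 10.3 ± 2.15 CPM with saline and did not pass over all genes (limma adjusted p = 0.0536), although it did in 7 of 25 alternatives. The ratio lost the threshold when most single livers were left out.

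Glul, the glutamine synthetase that works against Gls2, measured 1044 ± 111 CPM with FSH and 848 ± 71.1 CPM with saline (log2 fold change 0.30, limma adjusted p = 0.0513), and it passed in 6 of 25 alternatives. The log2 ratio of Glul to Gls2 was 1.36 ± 0.19 with FSH and 1.80 ± 0.33 with saline (difference -0.44, exact permutation p = 0.0346, adjusted p = 0.0577), which did not pass over the 5 ratios. Without saline mouse 2 it did (difference -0.56, adjusted exact permutation p = 0.0198). Slc25a15 to Slc25a2 differed by 0.02 (adjusted exact permutation p = 0.931), but Slc25a2, the second ornithine carrier, averaged 0.161 CPM, about the limit that no read allows, so that this ratio carries little.

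Around the cycle, 56 other nitrogen genes were listed in 4 groups, of which 55 were in the table and 49 were tested. Of these 35 were higher and 14 lower in FSH livers, with 4 passing the test in each direction, a split that leaned to higher genes under several alternatives, and a median log2 fold change of 0.13. Over all tested genes 6.19% passed higher and 4.41% lower, with a median of 0.02, and the counts of each group below are to be read against these. In the carrier and bicarbonate group, 11 of 13 tested genes were higher and 2 lower (median 0.20), and 2 passed the test, both higher. Slc38a3, which moves glutamine across the hepatocyte membrane, measured 1768, 2094, 1256, 1353 and 1264 CPM in FSH mice 1, 2, 3, 4 and 6 and 508 (lowest), 589 (median) and 701 CPM (highest) in saline mice. All FSH livers lay above all saline livers (log2 fold change 1.36, SE 0.13, limma adjusted p = 2.151e-05). Sirt5, a mitochondrial deacylase known to act on the Cps1 protein, rose from 11.6 ± 1.38 to 17.7 ± 2.83 CPM (log2 fold change 0.58, limma adjusted p = 0.00672).

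In the arginine, ornithine and proline group, 11 of 12 tested genes were higher with FSH and 2 passed (median 0.26). Prodh, which starts proline breakdown, rose from 170.2 ± 49.6 to 273 ± 25 CPM (log2 fold change 0.72, limma adjusted p = 0.0104). Azin1, which protects ornithine decarboxylase from its antizyme, rose from 54.0 ± 9.39 to 83.2 ± 16.7 CPM (log2 fold change 0.61, limma adjusted p = 0.0167), a call that was lost without FSH mouse 1 (adjusted p = 0.0529).

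Among the 4 groups, the genes that passed as lower were all in the 2 around glutamate and ammonia release. In the glutamate, glutamine and aspartate group 10 of 12 tested genes were higher with FSH (median 0.16), but the 2 that passed were lower. Cad, which makes carbamoyl phosphate for pyrimidines in the cytosol, fell from 9.06 ± 2.16 to 3.99 ± 0.938 CPM (log2 fold change -1.08, limma adjusted p = 0.00190) with no overlap between the groups. Gpt2, mitochondrial alanine aminotransferase, fell from 437 ± 89.1 to 309 ± 22.3 CPM (log2 fold change -0.48, limma adjusted p = 0.0298), a call lost in 7 of 25 alternatives. In the group of amino acid breakdown that releases ammonia, 9 of 12 tested genes were lower (median -0.21) and 2 fell, both of them parts of the glycine cleavage system. Gldc measured 64.2, 58.8, 67.8, 68.8 and 72.3 CPM in FSH mice 1, 2, 3, 4 and 6 against 161 (lowest), 179.7 (median) and 231 CPM (highest) in saline mice, with no overlap (log2 fold change -1.50, SE 0.10, limma adjusted p = 7.385e-07). Amt fell from 24.8 ± 4.43 to 14.7 ± 3.95 CPM (log2 fold change -0.75, limma adjusted p = 0.00691). Gcsh, another part of that system and chosen after its values were seen, did not pass (limma adjusted p = 0.279), at 115.1 ± 4.65 CPM with FSH and 105.5 ± 5.04 CPM with saline, although its groups were also separate, with FSH higher.

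**Figure D5:**
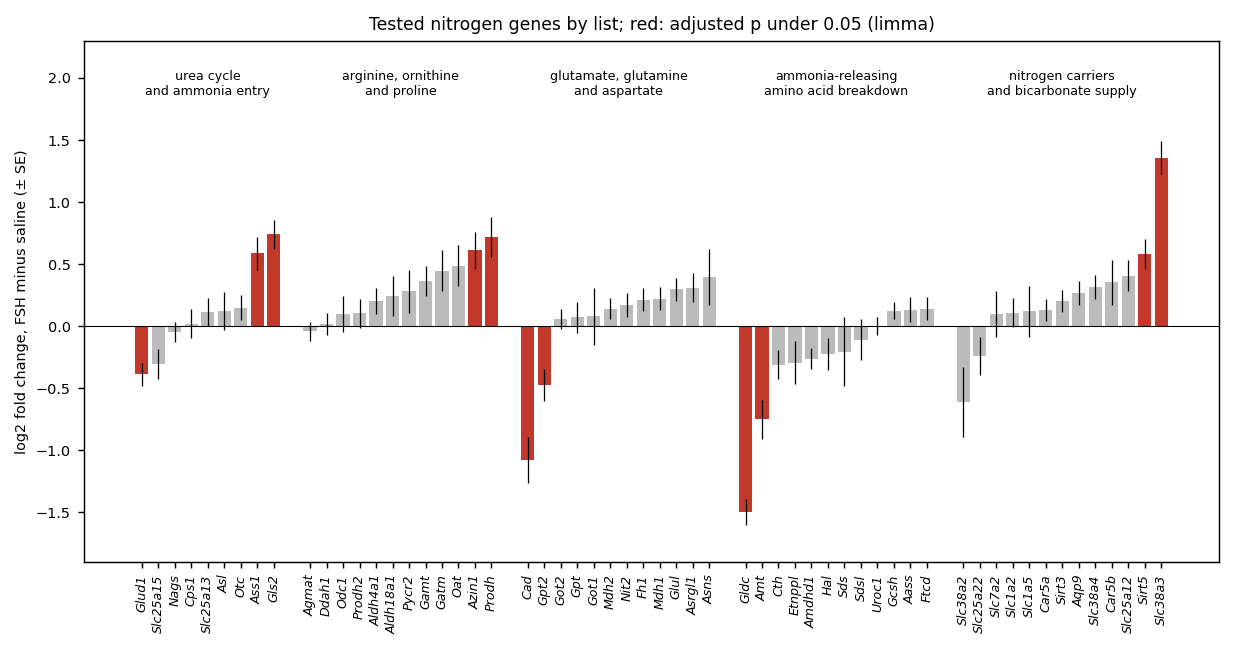
Log2 fold change (FSH minus saline) with its standard error from limma for the tested genes of the 9-gene set and of the 4 other nitrogen groups, ordered within each group; red bars passed an adjusted p of 0.05. Gldc (-1.50) and Cad (-1.08) are the lowest bars and Slc38a3 (1.36) is the highest.

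Markers of cell types and liver zones were read beside these results. Their counts are to be read against all tested genes, of which 6.19% passed higher and 4.41% lower. Of 10 periportal markers, the zone where the urea cycle enzyme genes are mainly expressed, 9 were lower in FSH livers, with 2 passing lower (Gldc and Cyp2f2, the latter at 344 ± 46.1 against 658 ± 30.9 CPM, limma adjusted p = 2.272e-05) and 1 higher (Aldh1b1, a call lost in 3 of 25 alternatives). Their summed level was 2293 to 4542 CPM with FSH and 3697 to 7379.5 CPM with saline, of which Pck1, which did not pass (limma adjusted p = 0.123), made up 687 to 2900.5 and 1434 to 5077 CPM. Of 8 tested pericentral markers 5 were higher and 3 lower (median log2 fold change 0.15), and 0 passed. The 9 measured pericentral markers summed to 8088 to 11336 CPM with FSH and 8468 to 12194 CPM with saline. Cyp2e1 made up 6054 to 8529 and 6861 to 10214 CPM of these sums. All 8 Kupffer cell markers and all 8 stellate cell markers were lower with FSH, with 1 passing in each (Cd68 and Hand2), and their sums were 111 to 304 and 229.9 to 329.9 CPM with FSH against 182 to 360.3 and 274 to 382 CPM with saline. Sums of endothelial, cholangiocyte, lymphocyte, erythroid, adipocyte and acinar markers overlapped between the groups, with Lyve1 and Fabp4 lower, Krt7 higher, 0 of the lymphocyte, erythroid and acinar markers passing, and 1 adipocyte and 3 acinar markers at 0 in all livers. Dbp, an output gene of the circadian clock chosen after its values were seen, was at 83.0 CPM with FSH and 4.30 CPM with saline (log2 fold change 4.02, limma adjusted p = 1.151e-07), and the hour of tissue collection is not given in the sources used here. The part of zone markers, other cells or time of day in the values of Gls2, Ass1 and Glud1 was not tested.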

How the data were processed

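Liver RNA of 5 FSH-treated and 6 saline-treated mice was made into NEBNext Ultra libraries and sequenced in pairs. The submitters' processing notes name FastQC 0.11.2, Trim Galore 0.3.3, cutadapt, STAR, RSEM and the build mm10; the annotation, the use of strand and filters are not given in the sources used here. The authors deposited 1 table of CPM values, with every library summing to 1000000, so that no scaling between libraries had been applied and a very abundant gene lowers the others. Dividing each library by its smallest step gave whole reads for 100% of the values (tolerance 0.01); these recovered read counts set the depth and were used for edgeR 4.0.16 and DESeq2 1.42.0 as alternatives.

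Symbols, positions and exon lengths came from GENCODE M21 (GRCm38), which named 35555 identifiers. No pair of libraries within a group agreed within sampling noise. Testing was limited to 12733 genes that averaged 0.5 CPM or more and was done on log2(CPM + 0.5), which understates the change of low genes, with limma 3.58.1 in R 4.3.3 (eBayes with an intensity trend, Benjamini-Hochberg adjustment over all). All 9 urea cycle and ammonia entry genes passed the filter. Single genes and ratios were also tested by exact permutation over all splits of the 11 livers into 5 and 6 (two-sided, smallest p = 0.00433). The p-values weigh the difference between the groups against the spread between these mice. They do not cover a difference in handling that a whole group shared. The test was also run on simulated data with 200 changed genes, all with absolute log2 fold changes of 1 or more. Every simulated gene had the same setting for the spread between mice. The run therefore does not show how well the smaller changes of the 9 genes are found.

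The genes and lists were chosen with earlier results of these data known. Named genes are the 9, from each nitrogen list those passing an adjusted p of 0.05 (at most 4), otherwise the 2 with the smallest p, and the 5 genes most like Cps1. The alternatives were other pseudocounts, filters, scalings and tools, thinned reads, a replicate block and leaving out each library. The library total without mitochondrial genes was not run, since no row carries such a name. Some items of the set are not reported here.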

Additional observations from a re-analysis of the deposited data

Results flagged for a closer look

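Within each group, the highest or lowest liver was compared with its neighbour for the 9 genes and the 3 ratios, 24 checks in all on the log2 scale, and 2 stood apart by Dixon's test at the 95% level, which chance alone flags in about 1 in 20 groups. Gls2 was at 429.1 CPM in FSH mouse 1, above the other 4 FSH livers, which lay between 395 and 404 CPM. The log2 ratio of Slc25a13 to Slc25a12 was 4.097 in FSH mouse 2, above the other 4 FSH livers and within the saline range of 3.93 to 4.43. On the CPM scale, tried for the 9 genes after seeing the data, Gls2 in saline mouse 2 (350.5 CPM) would also stand apart.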

How the results depend on the processing

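Gls2 kept its direction and its call in all 25 alternatives (log2 fold change 0.69 to 0.85, adjusted p 5.783e-06 to 0.00519), as did Glud1 (-0.43 to -0.34, adjusted p 3.241e-05 to 0.0452), and Ass1 in 24 of 25 (0.52 to 0.70, adjusted p 0.000816 to 0.0504). Between 2 and 4 of the 9 genes were called, and 0 passed both thresholds in any alternative. Cps1 turned to -0.0089 with median-of-ratios scaling, -0.0204 with edgeR, -0.0192 with DESeq2 and -0.0233 with the replicate block, and it ranged from -0.0233 to 0.108 when single livers were left out. The count of other nitrogen genes called rose from 8, of which 4 were higher, to 13 with DESeq2, of which 8 were higher, and was 12 with array weights (8 higher) and with quantile normalization (7 higher) and 11 with a filter of 5 CPM (7 higher); calls over all genes were 1350 as reported and 1743, 1892, 1455 and 1232 under these settings, and the cause was not tested. They numbered 803 (without FSH mouse 1) to 1659 when a liver was left out. The difference in the log2 ratio of Slc25a15 to Slc25a2, whose partner is near 0, ranged from -0.0828 to 0.111 when a liver was left out, and was -0.12 with a pseudocount of 1 CPM and 0.583 with one of 0.1 CPM, against 0.0177 as reported. The adjusted p of Slc25a13 to Slc25a12 stayed under 0.05 in 3 of 13 alternatives, where fewer livers also raise the smallest p an exact test can give. Whether the replicate numbers pair the mice is not given in the sources used here. The correlations of same-numbered mice were 0.07, 0.34, 0.06, 0.17 and -0.07, and 2 of 5 mice (2 and 4) matched best with their own number. So few values cannot settle whether same-numbered mice shared a cage or handling. With the replicate block over these 5 numbers 1210 genes were called, with Gls2 at 0.72, Ass1 at 0.56 and Glud1 at -0.41, all 3 past the threshold. Depth limits what can be read from Slc25a2, and the confidence intervals bound what these group sizes could detect for the 9 genes.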

Other observations

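Of 12 tested factors reported to act on urea cycle genes, 5 were higher and 7 lower in FSH livers (median log2 fold change -0.12), and 1 passed the test. Over all tested genes 10.6% passed in either direction. Hnf4a, a master regulator of hepatocyte genes, fell from 486 ± 85.7 (SD, n = 6) to 355 ± 52.3 CPM (SD, n = 5; log2 fold change -0.44, limma adjusted p = 0.0369), a call that was lost in 9 of 25 alternatives.

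The 5 tested genes whose level was most like that of Cps1 over the 11 livers were Frk (Pearson r = 0.91), 4930539J05Rik (0.89), Gm13456 (0.87), Actr6 (0.87) and Msl3 (0.87). These values are the highest of 12733 over only 11 livers that share the group contrast and are given as a description. Among the 36 pairs of the 9 genes, the deviations from the group means correlated positively in 20 (median r = 0.043).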
